A study of Saccharomyces cerevisiae with 6 samples.

Results

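Calling cards insertions directed by the zinc cluster transcription factor (TF) Eds1 were compared directly with those directed by its paralog Rgt1. Of the 6 libraries of the series, 2 entered the comparison, the Eds1 library and the Rgt1 library, and they were chosen by the TF named in their labels. In this assay the TF is joined at its C-terminus to Sir4, a silencing protein that draws in the integrase of the Ty5 retrotransposon, and Ty5 then lands close to the DNA that the TF occupies. Both libraries came from the laboratory budding yeast strain BY4741 without its own SIR4 gene (sir4D), and each came from a single clone that carried 1 plasmid with the TF-Sir4 fusion and 1 with a barcoded, HIS3-marked Ty5 under the GAL1/10 promoter. Both clones were kept for 3 days on galactose, then 2 days on YPD and 3 days on SC-HIS with 5'FOA, and the DNA downstream of Ty5 was recovered by inverse PCR after separate digests with HinPI1, HpaII and Taq-alphaI. They differ, as far as the labels say, in the fused TF. With 1 library per TF there is no replicate check: every test here compares these libraries, and every interval covers counting error only. Each line of the files counts as its own insertion, and the reads carry no molecular identifiers. An insertion listed more than once would make the intervals too narrow.

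Rgt1 is a DNA-binding repressor of the hexose transporter (HXT) genes. When glucose is scarce it sits at their promoters with its partners Mth1 and Std1 and the general corepressor Cyc8-Tup1, and glucose sensing through Snf3 and Rgt2 leads to the loss of Mth1 and Std1 and to release of the repression. Eds1 has the same kind of zinc cluster DNA-binding domain and is much less studied. The comparison addresses which places the paralogs share as targets and where they part.

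The Eds1 library held 30707 insertions on the 16 nuclear chromosomes and the Rgt1 library 29776. At 30024 and 19524 distinct positions they differed more. The median insertion rested on 3 reads in the Eds1 library and on 4 in the Rgt1 library. The insertions were spread very differently. Eds1 insertions fell into 7543 windows of 1 kb and Rgt1 insertions into 4309. The 10 richest windows took 6.77% of the Eds1 insertions and 44.9% of the Rgt1 insertions, and 50% of a library was reached with 985 windows for Eds1 and with 13 for Rgt1. Insertions listed at a base position that the same file already held made up 2.22% for Eds1 and 34.4% for Rgt1. These values pool the 2 passes of the Eds1 file and the 4 of the Rgt1 file through the chromosomes, described below. Within single passes they were 0.704% and 0% for Eds1, and 10.8%, 10.7%, 9.27% and 0% for Rgt1.

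Of the 8217 windows with an insertion in either library, 962 held at least 10 insertions in both together and were tested. A window was called where its share of the library differed at least 2-fold at an adjusted p under 0.05 (Fisher's exact test, two-sided, Benjamini-Hochberg over all 962). The Rgt1 share was higher in 67 windows, which is 6.96% of those tested, and the Eds1 share was higher in 207, which is 21.5%. The 67 windows formed 30 regions, joined over gaps of up to 3 kb, on 12 chromosomes, with 22 windows on chromosome IV, 12 on VIII, 10 on VII and 7 on V. They held 65.3% of the Rgt1 insertions and 9.87% of the Eds1 insertions. The 207 windows formed 178 regions on all 16 chromosomes and held 12.7% of the Eds1 insertions and 2.75% of the Rgt1 insertions.

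The split between the directions rests on what the shares are taken of. In 15 windows, each with at least 1% of the Rgt1 insertions, lay 53.0% of that library (95% exact binomial interval 52.4 to 53.5%), which lowers the Rgt1 share of every other window. The median log2 ratio of Rgt1 over Eds1 shares over the 962 windows was -1.13. With shares taken of the insertions outside those 15 windows, the median was -0.14, the Rgt1 share was higher in 91 windows (9.46%) and the Eds1 share in 7 (0.728%). All 67 Rgt1 windows kept their call under this scaling, and 7 of the 207 Eds1 windows did. The rescaling raises the ratio of Rgt1 over Eds1 by the same factor in every window. It therefore favours Rgt1 calls and works against Eds1 calls, and the 67 kept calls are no check of those windows.

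**Figure D1:**
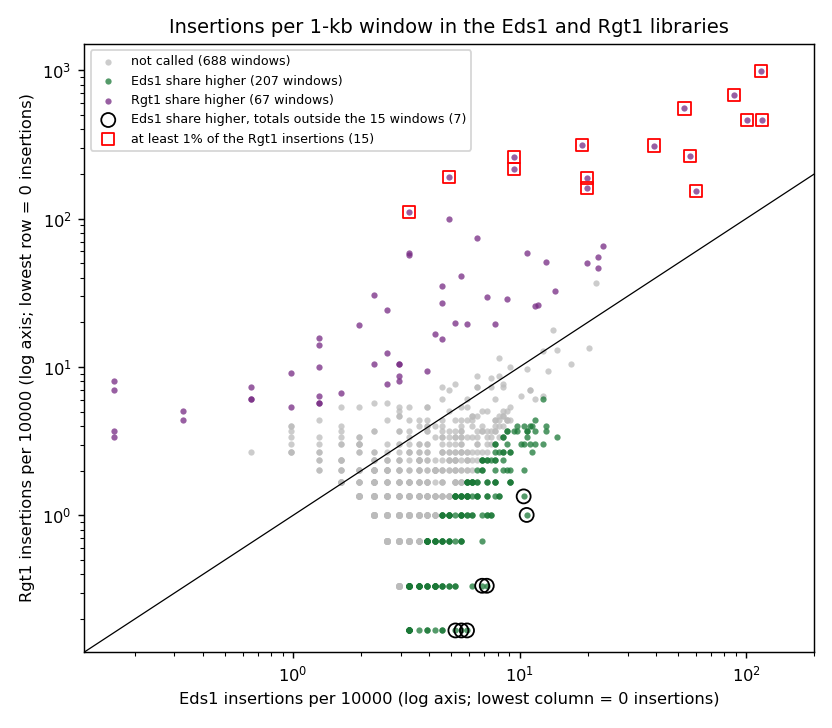
Insertions per 10000 of the Eds1 library (x axis, log) and of the Rgt1 library (y axis, log) in each of the 962 tested 1-kb windows, with the line of equal shares; windows without an insertion in a library are drawn at its lowest column or row. The 15 windows in red squares lie above the line and also hold the richest Eds1 windows, and the 7 circled windows are those with a higher Eds1 share under both scalings.

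The richest Eds1 windows were at hexose transporter genes that were also richest in Rgt1. The 15 windows, chosen by their Rgt1 share, held 2202 Eds1 insertions, 7.17% of that library (6.88 to 7.47%), against 0.243 to 0.299% in each of the other 4 TF libraries of the series. The 8 richest windows of the Eds1 library were all windows with a called higher Rgt1 share, as were 15 of its 20 richest. At MIG2, MIG3 and the transporter gene HXT2 the ranks parted. The MIG2 windows were 9 and 10 in the Rgt1 library and both 57 in the Eds1 library. The MIG3 window from 212001 was 11 and 274, and the HXT2 window, outside the 15, was 16 and 274. Of the 20 richest, 1 had a called higher Eds1 share. The Rgt1 share in the single windows was 2.55-fold to 39.1-fold that of Eds1, and its direction follows largely from how the windows were chosen. Over all 8217 windows the Pearson correlation of the insertion numbers was 0.807. Without the 15 windows it was 0.482, and over the 962 tested windows the Spearman correlation was 0.27. These windows share neighbours and base composition and are not independent.

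The 15 windows lie at 9 sites, grouped by neighbouring genes after their values were seen. The gene names come from neighbours in the RefSeq table of assembly R64 and the positions are those of the files. Of the 9 sites, 5 are at hexose transporter genes, and these took 90.8% of the Eds1 insertions and 76.4% of the Rgt1 insertions in the 15 windows.

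The site with the lowest ratio was next to HXT6, which encodes a high-affinity glucose transporter (chromosome IV, 1161001 to 1163000). It held 545 Eds1 and 1823 Rgt1 insertions, a Rgt1 share 3.45-fold higher (3.13 to 3.80). Beside HXT7, a nearly identical copy of HXT6 (chromosome IV, 1156001 to 1158000), 483 Eds1 and 2152 Rgt1 insertions gave 4.59-fold (4.16 to 5.08). Between these copies, reads of matching sequence could be placed at either one. The Eds1 library had its single richest window here, at 1162001 to 1163000, with 360 insertions against 1366 of Rgt1 (adjusted p = 1.27e-146, Fisher's exact test).

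HXT3, which encodes a low-affinity glucose transporter, lies on the same stretch (chromosome IV, 1164001 to 1167000). Its site had the largest Rgt1 share of the 9 sites, with 3505 insertions or 11.8% of the library, and 452 of Eds1, a ratio of 7.997 (7.25 to 8.84). On chromosome VIII the window beside HXT1, the low-affinity transporter of cells grown in ample glucose (293001 to 294000), was the richest Rgt1 window of the genome. It held 2933 Rgt1 insertions at 834 of its 1000 positions, and 356 Eds1 insertions at 275 positions, which made it the second richest window of Eds1. The ratio was 8.50 (7.61 to 9.51). Insertions there also rested on more reads than usual, with a median of 12 in the Eds1 and 19 in the Rgt1 library. At HXT4, another glucose transporter gene (289001 to 290000), 164 Eds1 and 1642 Rgt1 insertions gave 10.3 (8.79 to 12.2).

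At MIG2 and MIG3 the Eds1 share was further behind that of Rgt1 than at these 5 transporter sites. MIG2 and MIG3 encode zinc finger repressors that act in glucose repression. At MIG2 (chromosome VII, 94001 to 96000) 58 Eds1 insertions faced 1411 of Rgt1, a ratio of 25.1 (19.3 to 33.2). At MIG3 (chromosome V, 211001 to 213000) the numbers were 25 and 899, a ratio of 37.1 (24.96 to 57.6), the highest of the 9 sites. The intervals at MIG2 and MIG3 lie above those of all 5 transporter sites. The window at HXT2, another transporter gene, held 0.997% of the Rgt1 insertions and so was not among the 15. Its ratio of 20.4 (12.2 to 36.9) has an interval that overlaps those of both MIG2 and MIG3. YKR075C, a gene of unknown function (chromosome XI, 580001 to 581000), had 58 Eds1 and 927 Rgt1 insertions, a ratio of 16.5 (12.6 to 21.9). SKS1, which encodes a protein kinase tied to growth at low glucose (chromosome XVI, 502001 to 503000), had 61 and 477, a ratio of 8.06 (6.17 to 10.7), within the range of the transporter sites.

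Set against the 4 other TF libraries pooled, the Eds1 share was 26.8-fold to 66.3-fold higher at the 5 transporter sites. It was 8.73-fold higher at MIG2, 6.14-fold at MIG3, 6.06-fold at SKS1 and 2.44-fold at YKR075C. At YKR075C the Leu3 library gave 92 of the 111 pooled insertions, and the Eds1 share was 1.55-fold that of Leu3, 5.02-fold that of Ino4, 6.14-fold that of Sfp1 and 15.1-fold that of Zap1. With each position counted once, the Rgt1 over Eds1 ratio was 3.16 at HXT6, 4.66 at HXT1, 18.4 at MIG2 and 30.6 at MIG3. With insertions of at least 3 reads only, it was 3.58 at HXT6, 8.94 at HXT1, 31.9 at MIG2 and 60.6 at MIG3, the last on 8 Eds1 insertions. When insertions at most 5 bp apart were merged, 6 of the 12 windows with the largest Rgt1 gap in share lost their call, at HXT1, HXT3, HXT4, HXT6, HXT7 and YKR075C, and at HXT1, HXT4 and HXT6 the direction turned.

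**Figure D2:**
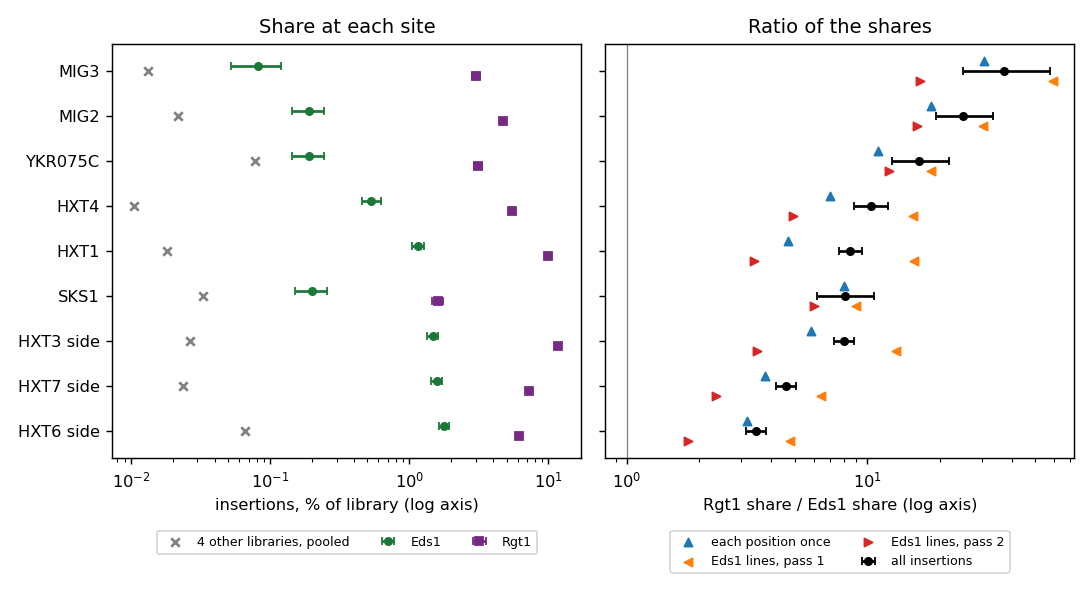
Left, the share of each library's insertions at the 9 sites (log axis) with exact 95% binomial intervals for Eds1 and Rgt1 and the pooled share of the 4 other libraries as crosses; right, the Rgt1 share over the Eds1 share (log axis) with its exact 95% interval, beside the ratio with each position once and with each pass of the Eds1 lines. The ratio runs from 3.45 at HXT6 to 37.1 at MIG3.

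Most Eds1 insertions at these sites lay at base positions that the Rgt1 file holds as well: 90.3% inside the 15 windows and 3.86% elsewhere. In the HXT1 window 99.2% did, and in the MIG2 window from 95001 69.0%. The other 4 libraries, with 39 to 226 insertions each in the 15 windows, had 74.4 to 82.3% of them at Rgt1 positions inside and 2.19 to 2.42% elsewhere. Eds1 insertions in the 15 windows at positions absent from the Rgt1 file came to 0.771% of the Eds1 insertions at such positions. Whether insertions or reads passed between the libraries was not tested.

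The lines of both files run through the chromosomes more than once, 2 times in the Eds1 file and 4 times in the Rgt1 file. Neither the labels nor the methods say what these passes are, so they did not serve as replicates. The Eds1 passes differed 3-fold at the 15 windows. Of the 23581 insertions of pass 1, 4.84% lay there (4.57 to 5.12%), and of the 7126 of pass 2, 14.9% did (14.1 to 15.7%). The Rgt1 passes had 61.6%, 46.4%, 64.3% and 51.9% there. The ratio in a single window, over the 8 pairs of an Eds1 pass and a Rgt1 pass, ran from 1.01 to 71.2. The ratio at HXT1 was 15.6 with Eds1 pass 1 alone and 3.39 with pass 2 alone, at HXT6 4.78 and 1.80, and at MIG3 59.3 and 16.5.

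**Figure D3:**
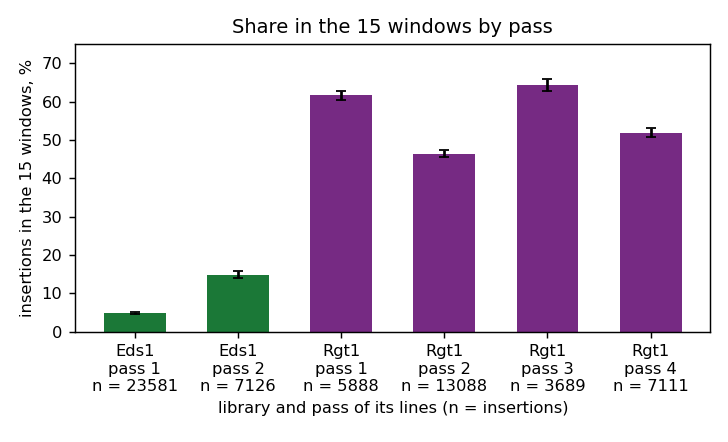
Percent of insertions in the 15 windows for each pass of the lines of the Eds1 and Rgt1 files, with exact 95% binomial intervals and the number of insertions per pass. The Eds1 passes are at 4.84% and 14.9%, and the Rgt1 passes lie between 46.4% and 64.3%.

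Beyond the 15 windows, 52 more had a called higher Rgt1 share, and several lie at genes of the same pathway. At MTH1, which encodes the Rgt1 partner degraded in glucose, the window from 1016001 on chromosome IV had 72 Eds1 and 194 Rgt1 insertions. STD1, the gene of the other partner, had 13 Eds1 and 148 Rgt1 insertions over its promoter windows, 11.7-fold (6.66 to 22.6). HXT2, a high-affinity transporter gene, had 15 and 298, 20.5-fold (12.2 to 37.1), the highest ratio among the tested transporter promoters. At HXT5 the numbers were 18 and 122, and at HXT8 2 and 15. The hexokinase genes HXK1 and HXK2 each had 1 called window, with 68 and 139 insertions for HXK1 and 9 and 26 for HXK2. MIG1, the best known repressor gene of glucose repression, had 71 and 167 over its promoter windows. Its ratio of 2.43 (1.83 to 3.25) was far below those of MIG2 and MIG3 and lower than those of the 5 transporter sites, where that of HXT6 had an overlapping interval.

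Other called windows with a higher Rgt1 share lie at genes outside the hexose transporter and glucose sensing lists used below. They were picked here for their insertion numbers after these were seen. The window beside TPO2, a polyamine exporter gene, had 33 Eds1 and 174 Rgt1 insertions. That at YOR062C, a gene similar to YKR075C, had 40 and 152, and that at the protein kinase gene TDA1 had 61 and 149. At AQR1, a gene for a drug and amino acid exporter, they were 24 and 58. In 4 of the 67 windows the Eds1 library had no insertion, which allows up to 3 by counting error. All 4 lie within 3 kb of a stronger Rgt1 window, such as the one at YPT31, near MIG3, with 24 Rgt1 insertions.

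Around the sites the ratio of the shares fell with distance. Inside the 15 windows together the Rgt1 share was 7.39-fold that of Eds1 (7.06 to 7.73), and at 1 to 4 kb from the nearest of them it was 7.87-fold (6.72 to 9.27), with overlapping intervals. At 5 to 9 kb it was 2.35-fold (1.92 to 2.89) and at 10 to 19 kb 1.35-fold (1.14 to 1.61). At 20 to 49 kb it was 0.778-fold, and on chromosomes without such a window 0.423-fold. Measured against its own density on those chromosomes, Rgt1 was 25.4 times denser at 1 to 4 kb and 5.44 times at 5 to 9 kb. Eds1 was 1.37 times denser at 1 to 4 kb and 0.980 times at 5 to 9 kb, while inside the 15 windows it was 63.0 times denser and Rgt1 1099 times. As a part of its own density inside the windows, that at 1 to 4 kb was 2.31% for Rgt1 and 2.17% for Eds1. The windows were chosen by their Rgt1 share, and other windows called for Rgt1, among them those of HXT5, fall within these distances and are part of the values.

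**Figure D4:**
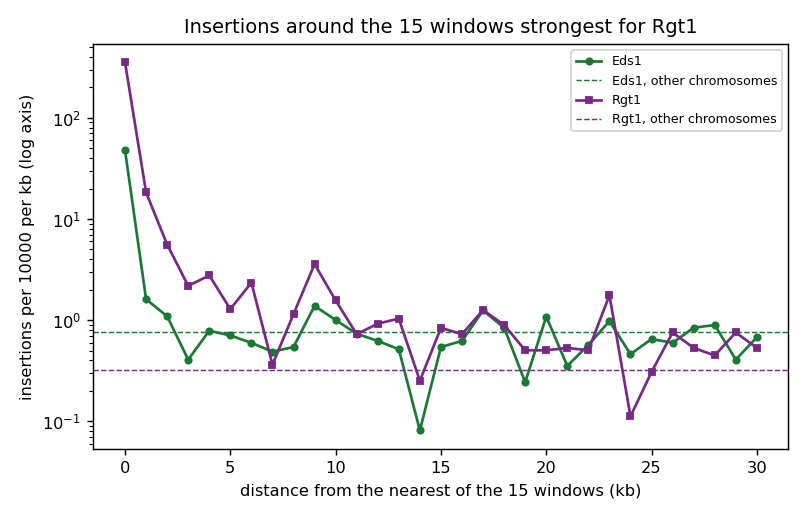
Insertions per 10000 per kb (log axis) of each library against the distance in kb from the nearest of the 15 windows, with the density on chromosomes without such a window as dashed lines. Rgt1 falls from 353 inside the windows to 18.3 at 1 kb and Eds1 from 47.8 to 1.61.

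The windows with a higher Eds1 share were weak ones. They held 10 to 45 Eds1 insertions, with a median of 17, and at most 18 of Rgt1, with a median of 3. In 18 of the 207 the Rgt1 library had none. Higher shares than in the Rgt1 library were also common in the other 4 TF libraries: in 11 of the 12 windows with the largest gaps, all 4 lay above Rgt1, and in 5 of the 12 at least 1 was at or above Eds1. The largest gap in share was at YLR257W, a gene of unknown function beside the glycogen synthase gene GSY2 (chromosome XII, 658001 to 659000), with 45 Eds1 and 10 Rgt1 insertions, an Eds1 share 4.36-fold higher (2.17 to 9.71). Eds1 had 0.147% of its insertions there, Sfp1 0.173%, Zap1 0.162%, Ino4 0.119% and Leu3 0.0834%. Both windows at CIT2, the gene of peroxisomal citrate synthase, were called, with 40 against 12 and 40 against 11. The first of these, from 122001 on chromosome III, was the window of the 12 where not all 4 other libraries lay above Rgt1. Eds1 had 0.130% of its insertions there, Rgt1 0.0403% and the other 4 libraries 0.0168 to 0.0490%. Another of the 12 windows lies near the right end of chromosome I, with 39 against 9.

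The remaining windows among the 12 with the largest gaps lie at genes of many kinds. CAR1, the arginase gene, had 32 Eds1 and 4 Rgt1 insertions, and ARG56, an arginine synthesis gene, 28 and 5. Near the starts of the cell wall protein genes CWP2 and CWP1 the numbers were 34 and 9, and beside NDE1, which encodes an NADH dehydrogenase of mitochondria, 32 and 6. They were 33 and 3 at POP3 beside the cell wall sensor gene WSC2, 36 and 11 at the ubiquitin conjugation gene UBC4, 35 and 8 near the starts of MNN4 and the kinase gene PTK1, and 36 and 9 beside ATG41, an autophagy gene. Of these 12, the windows at POP3 and CAR1 kept the call when shares were taken outside the 15 strongest windows.

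The 7 windows with a higher Eds1 share under both scalings include these and 5 with fewer insertions. At POP3 and WSC2 (chromosome XIV, 107001 to 108000) the Eds1 share was 10.7-fold higher (3.35 to 54.4), and at CAR1 (chromosome XVI, 339001 to 340000) 7.76-fold (2.75 to 30.2). The log2 ratios of Rgt1 over Eds1 were -3.04 and -2.68 there, and -2.06 and -1.70 with shares taken outside the 15 windows. In all 7 windows each of the other 4 TF libraries also had a higher share than Rgt1. In 1 of the 7, the LYS21 window given below, the Leu3 share of 0.0662% was above the Eds1 share of 0.0586%. Between the starts of VHR2 and ICL1 (chromosome V, 285001 to 286000), 22 Eds1 insertions faced 1 of Rgt1, 21.3-fold with an interval of 3.45 to 880. This window adjoins the promoter windows counted for ICL1 below and is not among them. Beside RIE1 (chromosome VII, 994001 to 995000) they were 21 and 1. No Rgt1 insertion was found at LYS21, a lysine synthesis gene, at XBP1, a repressor gene, or beside ERG26, a sterol synthesis gene, against 18, 17 and 16 of Eds1. With 3 Rgt1 insertions as the limit that a count of 0 allows in that library, the Eds1 share was at least 5.82-fold higher at LYS21, 5.49-fold at XBP1 and 5.17-fold at ERG26, a limit that leaves out the counting error of Eds1. The exact 95% intervals, which cover both counts, began at 4.26, 4.001 and 3.74. Of the Eds1 insertions, 19 of 22 at VHR2 and all 17 at XBP1 were in pass 1.

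For gene lists, insertions were counted in the windows that cover the 1000 bp before the first codon, and a gene was counted where at least 1 of these windows was called. Over all 5684 genes that could be placed, 65 had a window with a higher Rgt1 share (1.14%) and 316 a window with a higher Eds1 share (5.56%). Only 1248 had a tested window, and all called genes are among these. Counts out of the tested members of a list therefore stand beside 65 of 1248 for Rgt1 and 316 of 1248 for Eds1. The median log2 ratio of Rgt1 over Eds1 shares over all placed genes was -0.96. The lists were chosen with earlier results of these data known, so the counts describe them and carry no test.

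Of the 18 hexose transporter genes, 17 were placed, 9 were tested and 8 had a higher Rgt1 share: HXT1 to HXT8. These are not all separate sites. The HXT5 windows lie within 1 to 4 kb of the HXT1 window, a distance at which Rgt1 was 25.4 times denser than on chromosomes without such a window. HXT8 rests on 2 Eds1 and 15 Rgt1 insertions. None had a higher Eds1 share. The ninth tested gene was GAL2, the galactose permease gene, with 17 Eds1 and 6 Rgt1 insertions and no call. HXT9 to HXT11 and HXT13 to HXT17 had at most 7 insertions in both libraries together and were not tested. The median log2 ratio of the placed members was 1.78.

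Of the 18 placed glucose sensing and Rgt1 partner genes, 14 were tested, 8 had a higher Rgt1 share and 2 a higher Eds1 share. The 8 were MIG1, MIG2, MIG3, MTH1, STD1, HXK1, HXK2 and SKS1. The 2 were RGT2, a glucose sensor gene, with 25 Eds1 and 5 Rgt1 insertions, and TUP1, the corepressor gene, with 16 and 3. Neither kept its call with shares taken outside the 15 windows, where 0 members had a higher Eds1 share. The median log2 ratio of the placed members was -0.47, below 0, while those with a higher Rgt1 share reached 5.16. The sensor gene SNF3 had 3 Eds1 insertions and none of Rgt1. EDS1 itself had 14 and 4 before its own gene, without a call, and RGT1 was not placed, because it lies on chromosome XI, where the positions of the files and of the gene table are shifted against each other.

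Galactose was the carbon source while Ty5 moved. Of the 9 galactose genes 4 were tested, 0 had a higher Rgt1 share and 1, GAL80, the gene of the Gal4 inhibitor, had a higher Eds1 share with 20 against 4. GAL7 had 26 and 8, and GAL1 and GAL10, which share a promoter, 3 and 1. Of the 13 placed glycolysis genes 9 were tested. CDC19, the pyruvate kinase gene, had a higher Rgt1 share, with 44 Eds1 and 97 Rgt1 insertions in the called window, and 5 had a higher Eds1 share: ENO1 with 39 against 7, PFK1 with 24 against 3, PFK2 with 35 against 10, PDC1 with 20 against 5 and ADH1 with 13 against 2. Of the 8 placed gluconeogenesis and glyoxylate genes 5 were tested, 0 had a higher Rgt1 share and 3 a higher Eds1 share, MDH2 with 24 against 4, FBP1 with 18 against 4 and ICL1 with 16 against 5. Of the zinc cluster TF genes 3 were placed and 1 was tested, without a call. Their medians were -1.54 for galactose, -1.67 for glycolysis, -1.28 for gluconeogenesis and -0.69 for the zinc cluster list. With shares taken outside the 15 windows no member of these 4 lists had a higher Eds1 share, and CDC19 kept its call, which this scaling favours.

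**Figure D5:**
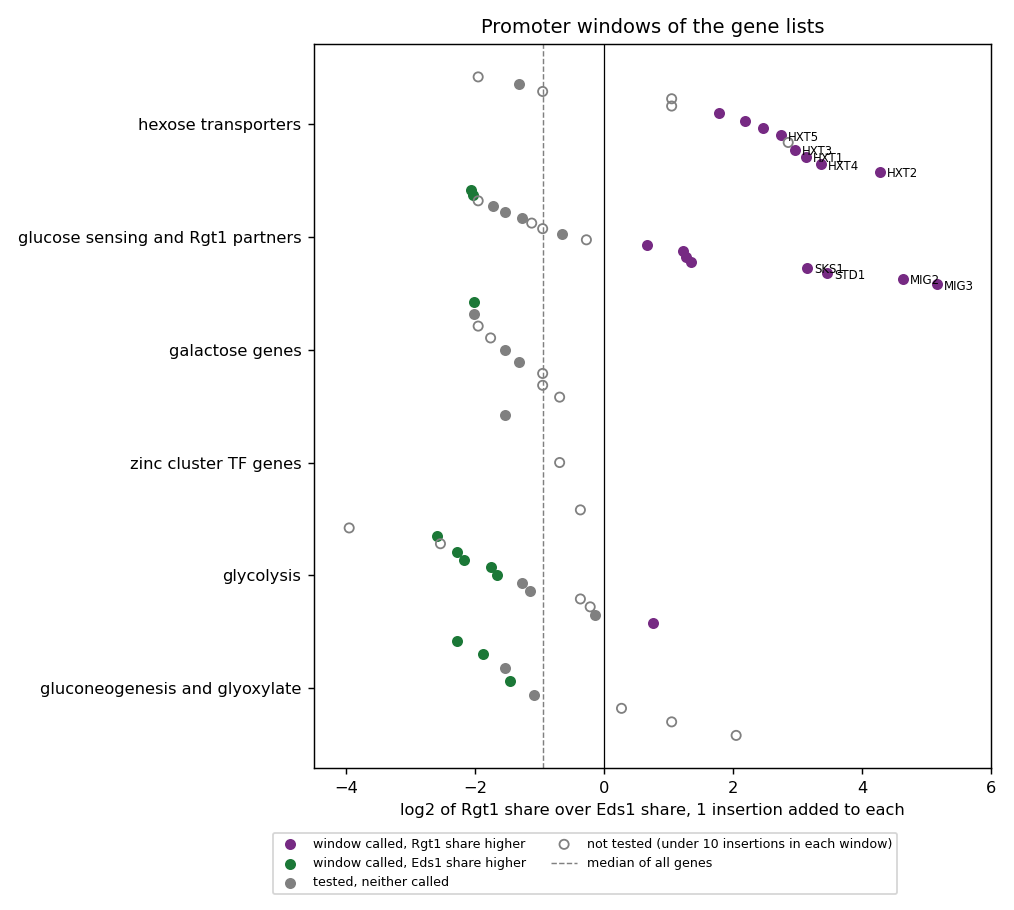
The log2 ratio of Rgt1 over Eds1 shares, with 1 insertion added to each side, in the promoter windows of each listed gene with any insertion; filled points were tested and coloured ones have a called window. The called hexose transporter genes lie between 1.78 and 4.27 and MIG3 at 5.16, against a median of -0.96 over all genes (dashed line).

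Sir4 is at home in silent chromatin near chromosome ends, so these were compared as well. Within 10 kb of the ends lay 1028 Eds1 insertions, 3.35% of the library, and 286 of Rgt1, 0.961%. The Rgt1 share was 0.287 times that of Eds1 (0.251 to 0.327, p = 1.89e-95, Fisher's exact test, two-sided). With shares taken outside the 15 windows it was 0.566 times (0.495 to 0.646, p = 1.43e-19, Fisher's exact test). Within 20 kb of the ends the Rgt1 share was 0.406 times that of Eds1, and 0.801 times (0.736 to 0.870) outside the 15 windows. The share per chromosome varied as well: outside the 15 windows chromosome VIII had a Rgt1 share 2.20-fold that of Eds1 and IV 1.45-fold, and the lowest was III at 0.539.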

How the data were processed

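The files of the 2 libraries hold 1 insertion per line (chromosome, position and read count), as deposited by the authors and without normalization. The submitters' processing notes name Novoalign; its version and the genome build are not given in the sources used here. A count of insertions was taken per 1-kb window of the 16 chromosomes, in Python 3.11.15 with scipy 1.17.1, pandas 2.3.3 and numpy 2.4.6. Windows with at least 10 insertions in both libraries together were tested by Fisher's exact test, two-sided, with Benjamini-Hochberg adjustment. Ratios of shares have exact conditional 95% intervals, and log2 ratios have 1 insertion added on each side. The test was tested on simulated insertions.

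Genes were named with RefSeq's table for assembly R64. Insertions avoided its gene bodies best at a shift of at most 50 bp in 46 of 48 stretches, 3 per chromosome. In the other 2, both on chromosome XI, the shift was 350 to 375 bp, so genes there were left out of the lists and windows there are named by neighbours only. None of its coordinates is printed. Named windows are the 12 called in each direction with the largest difference in share; neighbouring ones are described together. List members with at least 20 insertions have values, others mostly counts. Members, lists and tests were chosen with earlier results of these data known. The grouping into sites and some named windows were chosen after seeing the values. Alternatives were each position once, at least 3 reads, insertions within 5 bp once, other scaling, windows and minimums, a binomial test, and each pass left out. The 4 other libraries served only as a background.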

Additional observations from a re-analysis of the deposited data

How the results depend on the processing

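Counting each position once gave 25 windows with a higher Eds1 share in place of 207, at least 3 reads 111, insertions within 5 bp once 0, totals outside the 15 windows 7, a minimum of 1 insertion 47 and of 20 insertions 130. The number with a higher Rgt1 share stayed within 1.5 times of 67 under these settings, from 50 to 91. Counting each position once left 30024 Eds1 and 19524 Rgt1 insertions, and insertions within 5 bp once left 25386 and 10566. The median log2 ratio of Rgt1 over Eds1 shares moved from -1.13 to -0.55 and 0.26. Like the totals outside the 15 windows, these settings tilt the typical window towards Rgt1. Neither the fewer Eds1 calls nor the steady Rgt1 number is a check there. Leaving out 1 pass gave 34 to 68 windows with a higher Rgt1 share and 36 to 225 with a higher Eds1 share. Without Eds1 pass 1 they were 34 and 36, and without Rgt1 pass 1 or 2 the Eds1 windows were 129 and 98. Other windows, no minimum fold and the binomial test left both within 1.5 times.

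With each position once, the promoters with a higher Eds1 share were 0 for glucose sensing, galactose and gluconeogenesis and 1 for glycolysis. With at least 3 reads they were 1, 0, 1 and 3, and with insertions within 5 bp once or totals outside the 15 windows 0 in all 4 lists. The glycolysis promoters with a higher Rgt1 share were 0 with at least 3 reads and with insertions within 5 bp once.

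Counting insertions within 5 bp once reversed the log2 ratio at HXT1 (-1.47), HXT4 (-0.56) and the HXT6 window from 1162001 (-0.28), none past the threshold. Rgt1 hit 834 of 1000 positions at HXT1, 665 at HXT4 and 595 in that HXT6 window, so neighbouring insertions run together. Windows at HXT3 from 1165001 (0.36), HXT7 from 1156001 (0.23) and YKR075C (1.09) kept the direction and lost the call. It also reversed the CIT2 window from 122001 (0.53) and the one beside ATG41 (0.0015).

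The share of Eds1 insertions in the 15 windows was 5.98% with each position once, 0.771% without positions that the Rgt1 file also holds, 3.82% without the windows at HXT6 and HXT7, 4.84% in pass 1 and 14.9% in pass 2. The last 3 values and the rescaled chromosome ends were chosen after seeing the data. Leaving out the positions that the Rgt1 file holds lowers the share in the 15 windows in the other 4 libraries as well. No paired analysis was possible because each TF has 1 library and the labels give no replicate numbers.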
